A study of Homo sapiens with 6 samples.

Results

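The genes described here encode the integrins, the main receptors by which cells hold on to the matrix around them, and the laminins, which form the scaffold of basement membranes. Every protein-coding gene of the count table whose symbol has the form of an integrin α subunit, an integrin β subunit or a laminin chain was taken, and no expression value entered that choice. This gave 38 genes of the 63677 in the table, of which 26 encode integrins (18 α and 8 β subunits) and 12 encode laminin chains. A further 3 rows carried the symbol of a gene already in the set under another identifier and held 0 counts.

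The libraries came from the human embryonic stem cell lines Royan H6, here RH6, and Royan H5, here RH5. Naive cells, a state that resembles the embryo before implantation, had been made with 2a2iL and were maintained in 2iL medium, whereas primed cells, the usual state of such lines in culture, were kept with bFGF. Both states grew on inactivated mouse embryonic fibroblasts, so the state and the medium changed together. There were 2 naive libraries and 1 primed library of each line. Naive RH6 was at passage 10 and primed RH6 at passage 20, naive RH5 at passage 17 and primed RH5 at passage 16. Passage thus changed with the state, mostly in RH6. The state effect in RH6 and its difference between the lines cannot be told apart from passage. Whether the duplicates were separate cultures is not labelled, so the p-values reflect the spread between the libraries at hand, and that spread may be technical.

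The 6 libraries held 13457979 to 14663982 counts assigned to genes. Values are CPM, counts scaled to a common library size, and a fold change is always naive relative to primed, so that a gene that rose was higher in naive cells. All 8 markers of pluripotent cells were detected in the libraries, and their summed level was 5849.7 to 7940 CPM in naive and 8747 to 9589 CPM in primed libraries. A gene was called when its adjusted p in edgeR's quasi-likelihood test was under 0.05 over the 19434 genes that passed a filter on low counts. By this test over both lines, 0 of the 8 pluripotency markers rose and 3 fell (SOX2, SALL4 and DPPA4). Of all genes tested, 12.1% rose and 13.6% fell.

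An integrin is a pair of an α and a β subunit, and the pairing sets what the receptor binds. The α3, α6 and α7 subunits bind laminins, α1, α2, α10 and α11 bind collagens, and α5, α8, αv and αIIb bind the RGD motif of fibronectin, vitronectin and other ligands, while α4 and α9 bind other sites, such as those in VCAM-1 and tenascin. A laminin is a trimer of an α, a β and a γ chain, assembled in the cell before secretion. Primed human pluripotent cells are known to attach to laminins containing the α5 chain through integrin α6β1 and to vitronectin through integrin αvβ5.

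The promoters of 6 genes are shown because these genes had the largest rises (ITGA11, LAMA2 and LAMC1) and the largest falls (ITGA4, ITGB8 and ITGA2) among the called genes with a single start site in the RefSeq table. Each sequence is the 250 bases before the start, from 5′ to 3′ on the gene's strand. RefSeq's build, GRCh38.p14, is not the build on which the counts were made. Capitals mark matches, on either strand, to the GC box GGGCGG, the TATA box TATAAA, the AP-1 site TGANTCA, the ETS core CCGGAA or the TEAD site GGAATG.
ITGA11, chr15:68432164-68432413, minus strand: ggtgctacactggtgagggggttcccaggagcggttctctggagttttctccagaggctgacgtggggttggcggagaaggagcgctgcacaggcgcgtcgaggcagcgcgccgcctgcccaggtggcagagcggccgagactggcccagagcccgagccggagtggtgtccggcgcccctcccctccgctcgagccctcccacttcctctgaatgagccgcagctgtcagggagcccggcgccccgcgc
LAMA2, chr6:128882888-128883137, plus strand: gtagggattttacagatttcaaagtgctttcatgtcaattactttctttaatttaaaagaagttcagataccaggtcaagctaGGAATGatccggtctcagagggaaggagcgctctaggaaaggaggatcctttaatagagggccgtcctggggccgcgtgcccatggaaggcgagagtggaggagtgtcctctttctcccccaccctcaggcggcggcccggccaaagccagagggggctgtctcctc
LAMC1, chr1:183023170-183023419, plus strand: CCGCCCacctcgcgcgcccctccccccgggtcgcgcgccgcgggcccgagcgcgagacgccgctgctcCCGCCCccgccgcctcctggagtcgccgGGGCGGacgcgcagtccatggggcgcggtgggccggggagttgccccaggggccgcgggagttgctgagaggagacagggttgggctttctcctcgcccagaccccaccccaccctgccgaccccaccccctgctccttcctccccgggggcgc
ITGA4, chr2:181457136-181457385, plus strand: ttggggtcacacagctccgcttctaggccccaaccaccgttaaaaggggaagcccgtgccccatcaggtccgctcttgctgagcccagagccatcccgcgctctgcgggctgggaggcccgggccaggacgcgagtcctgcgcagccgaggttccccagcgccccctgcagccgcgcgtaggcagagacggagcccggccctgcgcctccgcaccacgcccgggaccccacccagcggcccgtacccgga
ITGB8, chr7:20330650-20330899, plus strand: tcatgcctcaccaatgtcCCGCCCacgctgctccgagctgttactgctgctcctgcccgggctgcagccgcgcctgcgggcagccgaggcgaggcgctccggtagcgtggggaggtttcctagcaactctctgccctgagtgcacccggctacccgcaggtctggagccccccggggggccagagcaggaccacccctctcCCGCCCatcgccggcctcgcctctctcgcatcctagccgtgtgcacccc
ITGA2, chr5:52989102-52989351, plus strand: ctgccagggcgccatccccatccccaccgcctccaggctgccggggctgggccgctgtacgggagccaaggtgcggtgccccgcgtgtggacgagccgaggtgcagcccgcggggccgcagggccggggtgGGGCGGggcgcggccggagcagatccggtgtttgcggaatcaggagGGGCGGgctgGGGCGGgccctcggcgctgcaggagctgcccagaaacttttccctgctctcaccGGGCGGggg

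ITGA2 held 4 GC boxes, LAMC1 held 3 and ITGB8 held 2. LAMA2 held a single TEAD site, which lay 167 bases before the start, and the ITGA11 and ITGA4 windows held none of the 5 motifs. The GC content was 71.2% for ITGA11, 53.2% for LAMA2, 79.6% for LAMC1, 72.8% for ITGA4, 71.2% for ITGB8 and 76.4% for ITGA2. The RefSeq table held 33 promoters for 26 of the 38 genes, with a median GC content of 60.0% against 58.0% over all 35116 promoters. A GC box was found in 51.5% of the 33 promoters and in 42.6% of all promoters, a TATA box in 6.06% and 10.7%, an AP-1 site in 6.06% and 6.57%, an ETS core in 15.2% and 14.5%, and a TEAD site in 12.1% and 11.9%. These are matches of letters in a short window, and none was tested as a binding site.

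Over both lines, integrin and laminin genes moved in both directions. Of the 38 genes, 28 passed the filter on low counts. Of these, 15 were called, 7 higher and 8 lower in naive cells, where 25.7% of all genes tested were called (12.1% higher and 13.6% lower). The median log2 fold change was -0.08 over the 28 genes and -0.01 over all genes tested. Among the 19 integrin genes tested, 4 rose and 7 fell with a median of -0.37, and among the 9 laminin genes tested, 3 rose and 1 fell with a median of 0.30. The naive and primed libraries did not overlap for 20 of the 28 genes (10 above and 10 below), against 44.3% of all genes tested. Of the 28 genes, ITGA4 passed the filter through the primed libraries alone, and ITGA11 and ITGB3 through the naive libraries alone. For these a difference in level was built in by the filter, so a call is no separate evidence of it, and ITGB3 was not called. In RNA from whole cultures, fewer cells of a type and less RNA per cell cannot be told apart. When the 2 naive libraries of each line were summed, which leaves 2 naive and 2 primed values, 7 of the 15 genes were still called (ITGA11, ITGA4, ITGA5, ITGB5, ITGB8, LAMA2 and LAMC1).

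**Figure D1:**
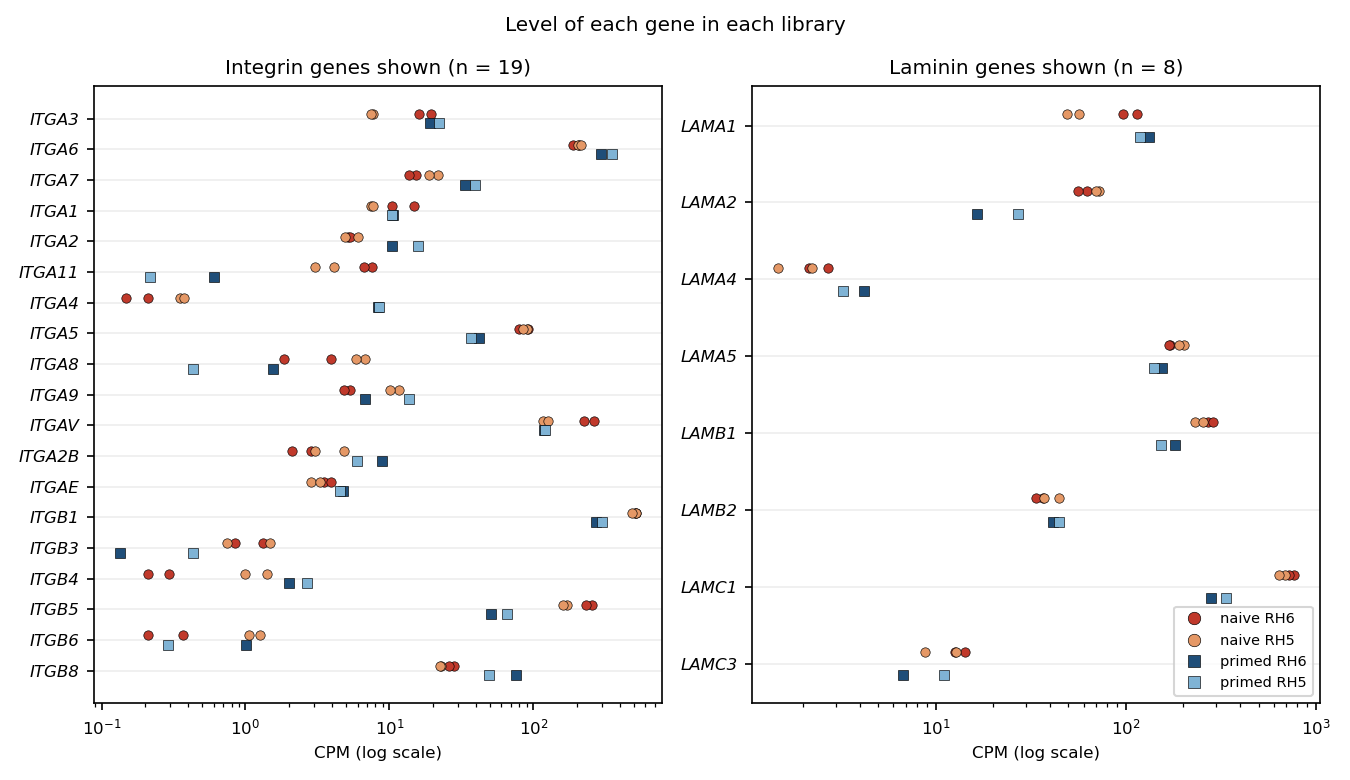
Level of each integrin gene (left, n = 19) and laminin gene (right, n = 8) shown of those that passed the filter, in CPM on a log scale, with 1 point per library. Circles are naive and squares are primed libraries, coloured by line. The ITGA4 squares lie near 8 CPM and all its circles are under 0.4 CPM, whereas the LAMC1 circles lie above its squares.

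Of the 3 laminin receptor α subunits, 2 fell in naive cells. ITGA6 (ENSG00000091409), whose product pairs with β1 or β4, had 207.8 and 189.7 CPM in naive RH6, 204.4 and 212.5 in naive RH5, 293.2 in primed RH6 and 351.9 in primed RH5. All 4 naive libraries lay below both primed libraries. The gene fell by 0.66 ± 0.10 on the log2 scale (SE, adjusted p = 0.0042), a 1.58-fold difference, with a fall in each line (-0.56 in RH6 and -0.76 in RH5).

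ITGA7 (ENSG00000135424), best known as the laminin receptor of muscle, had 15.2 and 13.7 CPM in naive RH6 and 21.6 and 18.8 in naive RH5, against 33.5 and 39.4 in primed RH6 and RH5. It fell by 1.09 ± 0.13 (SE, adjusted p = 0.0019), with no overlap between the states.

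ITGA3 (ENSG00000005884), whose product also binds laminin with β1, did not pass the test over both lines. Its levels were 19.3 and 16.1 CPM in naive RH6, 19.0 in primed RH6, 7.64 and 7.47 in naive RH5 and 22.2 in primed RH5. The naive RH5 libraries alone were low. On the log2 scale it differed by -0.86 ± 0.31 over both lines (SE, adjusted p = 0.084), -0.10 ± 0.17 in RH6 and -1.56 ± 0.18 (adjusted p = 1.09e-04) in RH5.

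The collagen receptor α subunits went in different directions. ITGA11 (ENSG00000137809), a receptor for fibrillar collagen typical of fibroblasts, had 7.57 and 6.62 CPM in naive RH6 and 4.10 and 3.06 in naive RH5, against 0.60 in primed RH6 and 0.22 in primed RH5. Every naive library was above both primed ones, and the rise was 3.69 ± 0.34 (SE, adjusted p = 6.28e-04). The summed counts were 297 in naive and 12 in primed libraries, a 12.8-fold ratio with a 95% exact interval of 7.24 to 25.1 that covers counting error only.

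ITGA2 (ENSG00000164171), whose product binds collagen and, in some cells, laminin, fell by 1.27 ± 0.20 (SE, adjusted p = 0.0046). It had 5.19 and 5.30 CPM in naive RH6, 6.01 and 4.93 in naive RH5, 10.4 in primed RH6 and 15.8 in primed RH5. Of the other collagen receptors, ITGA1 was not called at 7.43 to 14.7 CPM, and ITGA10 held 32 counts in all and was not tested.

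Markers of fibroblasts were also higher in naive libraries as a sum. The summed level of 14 fibroblast markers was 573.8 to 1150 CPM in naive and 308.1 to 316.9 CPM in primed libraries, with 12 of the 14 at 1 CPM or more in some library. Of the 12 tested, 7 rose and 1 fell, where 12.1% of all genes tested rose and 13.6% fell. On the log2 scale the rises were 4.33 for COL3A1, 3.16 for MMP2, 2.74 for LUM, 2.49 for POSTN, 2.38 for PDGFRB, 2.12 for COL6A3 and 1.15 for COL1A2, and THY1 fell (-1.37 ± 0.32, SE, adjusted p = 0.022). DCN and FAP were under 1 CPM in every library, and COL1A1, which was not called, was high in the naive RH6 libraries alone, at 366.7 and 275.9 CPM against 80.5 to 111.3 in the others. Their part in the results for ITGA11, LAMA2, LAMC1, ITGB5 and ITGA5 was not tested.

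Of the receptors for fibronectin and RGD ligands, ITGA4 (ENSG00000115232) had the greatest fall of the 28 genes. Its product binds VCAM-1 and fibronectin, and is best known from leukocytes and the neural crest. It held 3 and 2 counts in naive RH6 and 5 and 5 in naive RH5, against 124 in primed RH6 and 116 in primed RH5. In CPM these were 0.21, 0.15, 0.35 and 0.37 against 8.32 and 8.40. The gene fell by 4.92 ± 0.31 (SE, adjusted p = 1.67e-04), and by summed counts the level was 30.9-fold higher in primed libraries (95% exact interval 18.3 to 56.0, for counting error only). Of 9 leukocyte and platelet markers, CD3E and GP9 were at 0 counts in every library, and PTPRC held at most 3 counts in a library. GP1BA held 50 to 100 counts in a library and was not called. CSF1R held 10 to 20 counts in naive and 3 and 4 in primed libraries. It rose by 2.08 ± 0.52 (SE, adjusted p = 0.028). With 0.20 and 0.29 CPM in primed libraries, under the filter's cutoff of 0.71 CPM, it passed through the naive libraries alone. A difference in level was thus built in by the filter, and the call is no separate evidence of it. The summed level of the 9 markers was 5.75 to 7.50 CPM in naive and 6.88 to 7.92 CPM in primed libraries. Most of that sum was the platelet gene GP1BA, at 3.73 to 6.71 CPM, and 7 of the 9 markers were under 1 CPM in every library.

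ITGA5 (ENSG00000161638), which forms the classical fibronectin receptor with β1, changed the other way. It had 92.3 and 78.8 CPM in naive RH6 and 89.9 and 84.3 in naive RH5, against 42.1 in primed RH6 and 36.9 in primed RH5. The 4 naive libraries lay within a narrow range, and the rise was 1.13 ± 0.12 (SE, adjusted p = 0.0012), or 2.19-fold.

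ITGAV (ENSG00000138448), the common partner of β1, β3, β5, β6 and β8, was high in naive RH6 alone. It had 265.3 and 223.6 CPM there, and 116.1, 125.6, 118.2 and 120.2 CPM in naive RH5 and in primed RH6 and RH5. Over both lines the difference of 0.50 ± 0.23 on the log2 scale missed the threshold (SE, adjusted p = 0.16).

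ITGA2B (ENSG00000005961), the αIIb subunit of platelets, had 2.10 and 2.87 CPM in naive RH6, 4.81 and 3.06 in naive RH5, 8.92 in primed RH6 and 5.94 in primed RH5. It fell by 1.24 ± 0.35 (SE, adjusted p = 0.039). The call was lost in 6 of 13 alternatives, among them without either naive RH6 library, the second naive RH5 library or the primed RH6 library (which leaves the effect in RH5 alone), with values from -1.81 to -0.58 and adjusted p up to 0.20.

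ITGA8 (ENSG00000077943), an RGD receptor of mesenchymal cells, had 3.93 and 1.84 CPM in naive RH6, 6.72 and 5.83 in naive RH5, 1.54 in primed RH6 and 0.43 in primed RH5. The states did not overlap, yet the difference of 2.06 ± 0.67 was not called over both lines (SE, adjusted p = 0.063). ITGA9, which binds tenascin and VCAM-1, was not called, at 4.86 to 13.7 CPM.

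The α subunits that mark leukocytes were at or near the floor of the data. ITGAD, ITGAL, ITGAM and ITGAX held 2 to 18 counts in the 6 libraries together, too few to test. ITGAE was tested at 2.83 to 4.76 CPM and not called (log2 fold change -0.47 ± 0.22, SE, adjusted p = 0.16). The leukocyte β subunits ITGB2 and ITGB7 held 23 and 36 counts and were not tested.

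Of the β subunits, ITGB1 and ITGB5 rose and ITGB8 and ITGB4 fell. ITGB1 (ENSG00000150093), the partner of most α subunits, had 518.3 and 507 CPM in naive RH6 and 515.1 and 482.1 in naive RH5, against 271.5 in primed RH6 and 300 in primed RH5. The naive libraries were all above the primed ones and the rise was 0.82 ± 0.10 (SE, adjusted p = 0.0021), or 1.77-fold. ITGB1 shares sequence with a processed copy, ITGB1P1 (ENSG00000269378), which held 45.7% to 53.3% as many counts as ITGB1 in each library, so the level of ITGB1 is uncertain. The copy alone rose by 0.89 ± 0.11, and the sum of both by 0.85 ± 0.10 (adjusted p = 0.0018).

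ITGB5 (ENSG00000082781), which with αv binds vitronectin, had 254.6 and 231.4 CPM in naive RH6, 172.5 and 161.6 in naive RH5, 51.0 in primed RH6 and 66.0 in primed RH5. Naive RH6 was the highest and the primed libraries were far below both naive pairs. The rise was 1.77 ± 0.22 (SE, adjusted p = 0.0018), or 3.42-fold.

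ITGB8 (ENSG00000105855), which with αv binds latent TGFβ and takes part in its activation, went the other way. It had 27.9 and 26.0 CPM in naive RH6, 22.6 and 22.4 in naive RH5, 76.2 in primed RH6 and 49.0 in primed RH5. The naive libraries lay close together below both primed libraries, and the gene fell by 1.32 ± 0.12 (SE, adjusted p = 6.89e-04).

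ITGB4 (ENSG00000132470), which forms the laminin receptor α6β4 of epithelial hemidesmosomes, was low throughout. It had 0.21 and 0.29 CPM in naive RH6, 0.99 and 1.42 in naive RH5, 2.01 in primed RH6 and 2.68 in primed RH5, and fell by 1.90 ± 0.47 (SE, adjusted p = 0.025). The call was lost in 6 of 13 alternatives, among them without either naive RH6 library, the first naive RH5 library or the primed RH6 library (which leaves RH5 alone), with values from -2.93 to -1.14 and adjusted p up to 0.15. ITGB3 was not called at 0.13 to 1.49 CPM, and ITGB6 is described with the differences between the lines.

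In the laminin α chains the main change was a rise of LAMA2 in both lines. LAMA1 fell, mainly in RH5. LAMA2 (ENSG00000196569) encodes the α2 chain known from the basement membrane of muscle. It had 62.6 and 56.3 CPM in naive RH6, 72.4 and 69.9 in naive RH5, 16.4 in primed RH6 and 27.0 in primed RH5, with no overlap. The rise was 1.62 ± 0.15 (SE, adjusted p = 5.99e-04), or 3.07-fold.

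LAMA1 (ENSG00000101680) encodes the α1 chain, typical of the early embryo. It had 114.1 and 97.2 CPM in naive RH6, 56.4 and 49.3 in naive RH5, 133.3 in primed RH6 and 119.4 in primed RH5. The naive RH6 values came close to the primed ones and those of naive RH5 lay far below. The gene fell by 0.77 ± 0.19 over both lines (SE, adjusted p = 0.027). Its call was lost in 6 of 13 alternatives, among them without the second naive RH6 library, either naive RH5 library or the primed RH5 library (which leaves RH6 alone), with values from -1.17 to -0.31 and adjusted p up to 0.20.

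LAMA5 (ENSG00000130702), whose α5 chain is part of the laminins on which primed cells are commonly grown, differed little. It had 170.1 and 167.9 CPM in naive RH6, 202.2 and 189.9 in naive RH5, 154.8 in primed RH6 and 140.2 in primed RH5. The states did not overlap, but the log2 fold change of 0.30 ± 0.12 was not called (SE, adjusted p = 0.0995). Within RH5 it rose by 0.48 ± 0.11 (adjusted p = 0.0084), and in RH6 the value was 0.13 ± 0.11. LAMA4 was not called at 1.49 to 4.23 CPM, and LAMA3, an epithelial chain, held 54 counts in all and was not tested.

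LAMB1 (ENSG00000091136), the β chain of most laminins of the early embryo, rose. It had 272.1 and 286.9 CPM in naive RH6, 230.7 and 255.1 in naive RH5, 182.6 in primed RH6 and 153.6 in primed RH5. The states did not overlap, and the rise was 0.64 ± 0.10 (SE, adjusted p = 0.0049), with like values in RH6 (0.61) and RH5 (0.66). LAMB2 (ENSG00000172037), the alternative β chain, overlapped between the states at 33.9 to 44.6 CPM in naive and 41.4 and 44.5 in primed libraries. On the log2 scale it differed by -0.18 ± 0.12 (SE, adjusted p = 0.34). LAMB3 and LAMB4 held 44 and 1 counts and were not tested.

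LAMC1 (ENSG00000135862), the γ chain of most laminins, rose in both lines. It had 770.8 and 723.3 CPM in naive RH6, 687.3 and 643.1 in naive RH5, 280.1 in primed RH6 and 336.2 in primed RH5. Every naive library was well above both primed libraries, and the rise was 1.19 ± 0.13 (SE, adjusted p = 0.0013), or 2.29-fold. LAMC3 was not called over both lines at 6.71 to 14.2 CPM.

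To set levels of different genes side by side, CPM was divided by the length of each gene's exons in GENCODE v29, an annotation other than the one counted. On this scale of CPM per kb, ITGA6 made up 37.4% and 39.0% of the integrin α total in naive RH6, 46.9% and 48.4% in naive RH5, and 57.1% and 60.4% in primed RH6 and RH5. ITGAV made up 38.0% and 36.6% in naive RH6, 21.2% and 22.8% in naive RH5, and 18.3% and 16.4% in the primed libraries. ITGA5 made up 14.0% to 17.8% in naive and 7.08% and 5.46% in primed libraries. Thus ITGA6 led in every library but the first of naive RH6, and in both naive RH6 libraries ITGA6 and ITGAV were nearly level.

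Among the β subunits, ITGB1 made up 67.4% to 74.7% in naive and 76.7% and 78.0% in primed libraries, not counting its copy. ITGB5 made up 23.3% to 30.9% in naive and 13.4% and 16% in primed libraries, and ITGB8 made up 1.30% to 1.44% against 8.54% and 5.05%. The summed β level was 107.5 to 127.9 CPM per kb in naive libraries and 58.9 and 64.0 in primed RH6 and RH5. The summed α levels of the states overlapped, at 85.1 and 74.4 in naive RH6, 66.7 and 67.2 in naive RH5, 78.6 in primed RH6 and 89.1 in primed RH5.

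Of the laminin α chains, LAMA5 led in every library on this scale, with 47.0% to 56.9% of the total in naive and 51.0% and 48.4% in primed libraries. Below it the order changed. LAMA2 exceeded LAMA1 in naive RH5 (28.1% and 28.9% against 14.3% and 13.3%), was close to it in naive RH6 (23.8% and 23.0% against 28.4% and 25.9%), and was far below it in primed RH6 and RH5 (7.48% and 12.9% against 39.6% and 37.1%). LAMB1 made up 81.1% to 87.5% of the β chains in naive and 78.7% and 74.0% in primed libraries, and LAMC1 made up 93.8% to 95.8% and 91.6% and 89.4% of the γ chains. The summed levels of the α, β and γ chains averaged 24.3, 37.7 and 88.5 CPM per kb in naive and 20.7, 27.0 and 40.6 in primed libraries. These shares are descriptions of 6 libraries and were not tested.

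**Figure D2:**
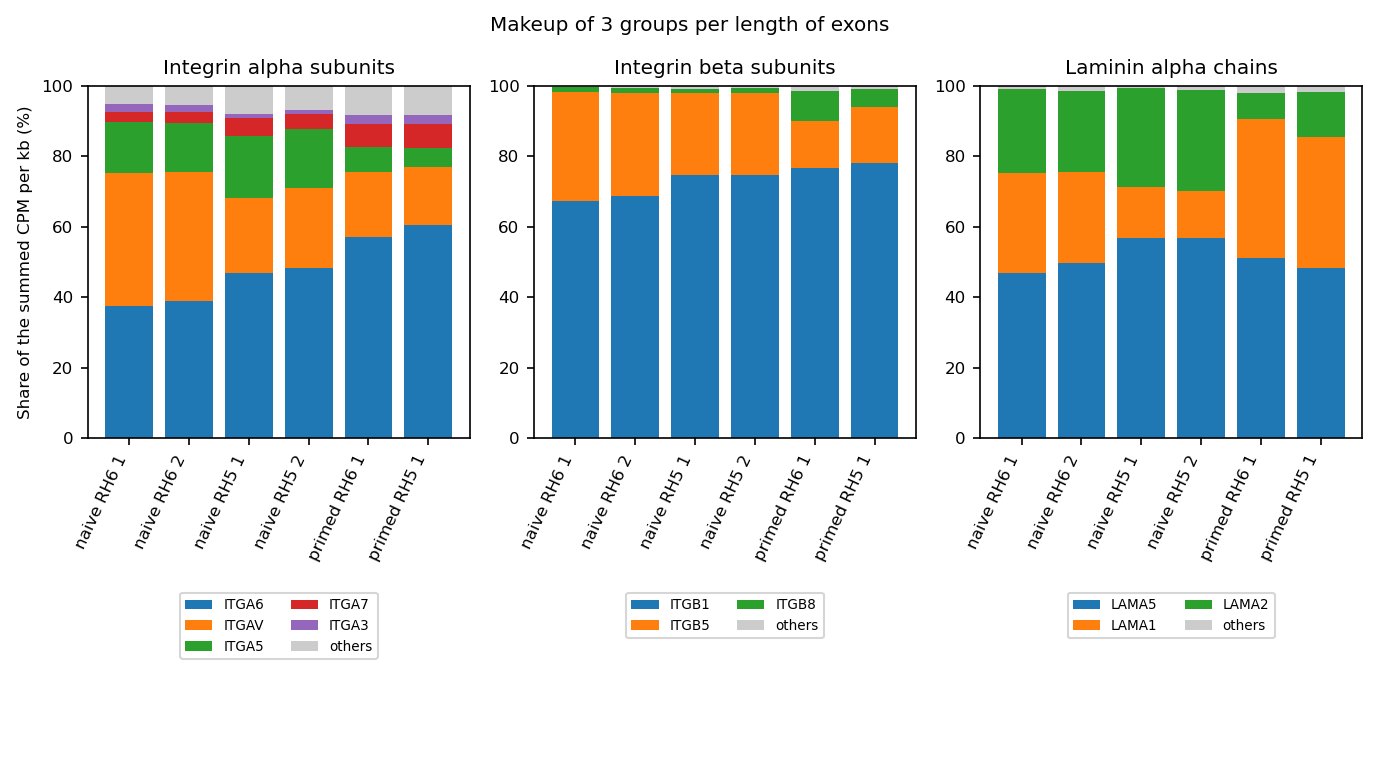
Share of each gene in the summed CPM per kb of exons of the integrin α subunits, the integrin β subunits and the laminin α chains, in percent, with 1 bar per library. ITGAV holds 36.6% and 38.0% of the α subunits in the naive RH6 libraries and 16.4% to 22.8% in the other 4, and LAMA2 holds 23.0% to 28.9% of the laminin α chains in naive against 7.48% and 12.9% in primed libraries.

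Within RH6, 18 of the 28 genes were called (11 higher, 7 lower), where 33.6% of all genes tested were called (16.4% higher and 17.2% lower). Within RH5, 17 were called (9 higher, 8 lower), where 33.5% of all genes were (16.5% and 17%). In these tests the lone primed library of a line was assumed to vary like the naive duplicates. A total of 24 genes had the same sign in both lines, 12 were called in the same direction in both, 5 in RH6 alone and 4 in RH5 alone. Being called in a single line is no test of a difference between the lines, which was tested directly.

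The state effect differed between the lines for 7 of the 28 genes, where 12.0% of all genes tested differed (5.86% with a higher effect in RH6 and 6.16% with a lower one). Naive duplicates and lone primed libraries entered this test, so each difference rests in part on 2 single primed libraries. The passages of naive and primed cells lay further apart in RH6 (10 and 20) than in RH5 (17 and 16). The line and this gap in passage cannot be told apart. The effect in RH6 minus that in RH5 was 1.46 ± 0.25 for ITGA3 (SE, adjusted p = 0.0045). It was 1.04 ± 0.19 for ITGAV (adjusted p = 0.0058), which rose by 1.05 ± 0.14 in RH6 and had a log2 fold change of 0.01 ± 0.13 in RH5. It was 0.91 ± 0.17 for ITGB5 (adjusted p = 0.0073), which rose by 2.25 in RH6 and by 1.34 in RH5, and 0.84 ± 0.20 for LAMA1 (adjusted p = 0.021), whose RH6 value was -0.33 and whose fall in RH5 was significant (-1.17).

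For ITGB6 and ITGA8 the naive RH5 libraries stood higher. ITGB6 (ENSG00000115221), the αv partner of epithelia, had 0.21 and 0.37 CPM in naive RH6, 1.06 and 1.27 in naive RH5, 1.01 in primed RH6 and 0.29 in primed RH5, from 59 counts in all. The difference between the lines was -3.75 ± 0.95 (SE, adjusted p = 0.029). Its own log2 fold changes, -1.78 for RH6 and 1.97 for RH5, were not called. For ITGA8 the difference was -2.92 ± 0.82 (SE, adjusted p = 0.045), with 0.90 ± 0.48 in RH6 and a rise of 3.83 ± 0.59 in RH5, and it was not called by DESeq2 or limma-voom (adjusted p up to 0.084).

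**Figure D3:**
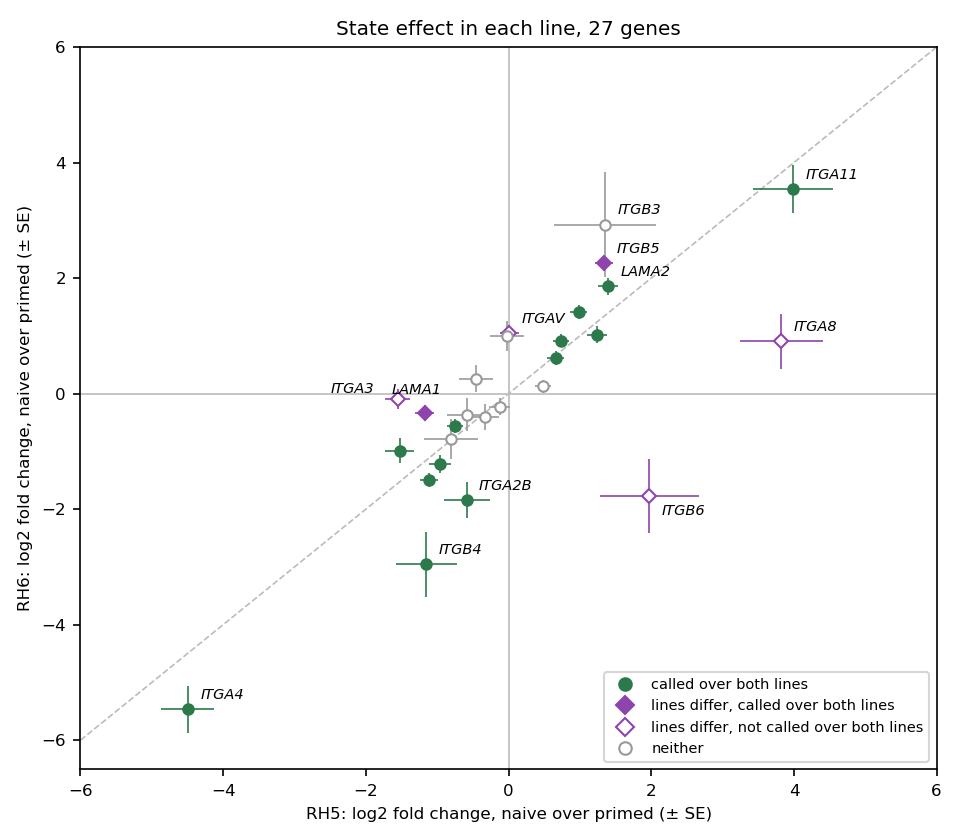
Log2 fold change, naive over primed, in RH5 (x axis) and RH6 (y axis) for 27 of the genes tested, with bars of 1 SE. Diamonds mark the 6 genes shown whose state effect differed between the lines, filled symbols are genes called over both lines, and the dashed line marks equal effects. ITGB6 lies in a quadrant of opposite sign, and ITGAV lies at 1.05 in RH6 and 0.01 in RH5.

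Between the naive cells of the lines, 12 of the 28 genes differed, 7 higher and 5 lower in RH6, where 25.5% of all genes tested differed (12.0% higher and 13.5% lower). The line and the passage (10 against 17) cannot be told apart here. The higher genes included ITGA3, ITGA1, ITGA11, ITGAV, ITGB5 and LAMA1, and the lower ones were ITGA7, ITGA8, ITGA9, ITGB4 and ITGB6. ITGA3 (1.23 ± 0.16, adjusted p = 3.01e-04), ITGAV (1.02 ± 0.11, adjusted p = 1.09e-04) and LAMA1 (1.00 ± 0.12, adjusted p = 1.80e-04) were the genes furthest above naive RH5. ITGA6 (-0.07 ± 0.09, SE, adjusted p = 0.64), ITGB1 (0.04 ± 0.09, adjusted p = 0.79) and ITGA5 (-0.03 ± 0.11, adjusted p = 0.89) were not called. DESeq2 called 6 of the 12 (ITGA3, ITGA9, ITGAV, ITGB5 and LAMA1 among them).

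Genes whose products work with integrins and laminins were taken as 3 lists. These were drawn up with earlier results of these data known, so their counts are descriptions and no independent test of the lists. Of 45 genes of the adhesion complex, which ties integrin tails to actin and to signalling, 44 were tested, and 15 rose and 1 fell, with a median log2 fold change of 0.42, where 12.1% of all genes tested rose and 13.6% fell with a median of -0.01. The largest rises were those of TNS3, an actin-binding tensin (1.32 ± 0.23, adjusted p = 0.0076), PARVA, which binds integrin-linked kinase (1.28 ± 0.17, adjusted p = 0.0024), and ILK, that kinase itself (1.26 ± 0.31, adjusted p = 0.026). The gene that fell was FERMT1 (-1.48 ± 0.17, SE, adjusted p = 0.0015), the kindlin of epithelia, with 7.15 to 8.42 CPM in naive and 17.8 and 27.1 CPM in primed libraries. In RH6 20 of these genes rose and 2 fell (16.4% and 17.2% of all genes), and in RH5 17 rose and 1 fell (16.5% and 17% of all genes).

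All 24 genes of the partners of laminin in the basement membrane and of other laminin receptors were tested, and 8 rose and 9 fell (12.1% and 13.6% of all genes), with a median of -0.14. The rises were led by COL18A1 (1.38 ± 0.18, SE, adjusted p = 0.0025), COL4A6 (1.07 ± 0.16, adjusted p = 0.0041) and NID2, a nidogen that links laminin to collagen IV (1.04 ± 0.15, adjusted p = 0.0033). The falls were led by the matrix protein gene SMOC1 (-2.52 ± 0.68, adjusted p = 0.035), by BCAM (-1.26 ± 0.17, adjusted p = 0.0028), a receptor for the laminin α5 chain, and by the syndecan SDC2 (-1.24 ± 0.11, adjusted p = 5.70e-04). The fall of SMOC1 rested mainly on primed RH6, with 22.1 CPM against 4.06 in primed RH5 and 1.03 to 2.90 in naive libraries. Its log2 fold change was -3.94 in RH6 and -0.63 in RH5. That of COL18A1 was 1.78 in RH6 and 1.01 in RH5.

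Of 31 other integrin ligands, 28 were tested, and 10 rose and 6 fell (12.1% and 13.6% of all genes), with a median of 0.56. The leading rises were those of the collagen gene COL3A1 (4.33 ± 0.24, SE, adjusted p = 1.02e-04), SPP1, the RGD protein osteopontin (3.82 ± 0.18, adjusted p = 6.74e-05), and NPNT, nephronectin, a ligand of α8β1 (2.51 ± 0.43, adjusted p = 0.0065). COL3A1 had 81.1 to 160.1 CPM in naive and 5.57 and 5.29 CPM in primed libraries, and it is also one of the 14 fibroblast markers. The log2 fold change of NPNT was 3.57 in RH6 and 1.66 in RH5. The leading falls were those of VWF (-3.26 ± 0.31, adjusted p = 7.66e-04), VCAM1, a ligand of α4β1 (-3.17 ± 0.48, adjusted p = 0.0041), and EDIL3, an RGD protein (-2.46 ± 0.11, adjusted p = 6.63e-05). VCAM1 was low, at 0.07 to 0.22 CPM in naive and 1.61 and 1.45 CPM in primed libraries. Its naive values lay under the filter's cutoff of 0.71 CPM, so it passed through the primed libraries alone. Its difference in level was built in by the filter, and its call is no separate evidence of it. VWF is also one of 7 endothelial markers looked at. Of the 6 tested, 2 rose and 3 fell (12.1% and 13.6% of all genes), and PECAM1 was at 0 counts in every library. Among these calls, CDH5 rose after passing the filter through the naive libraries alone. ERG and TIE1 fell after passing it through the primed libraries alone.

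**Figure D4:**
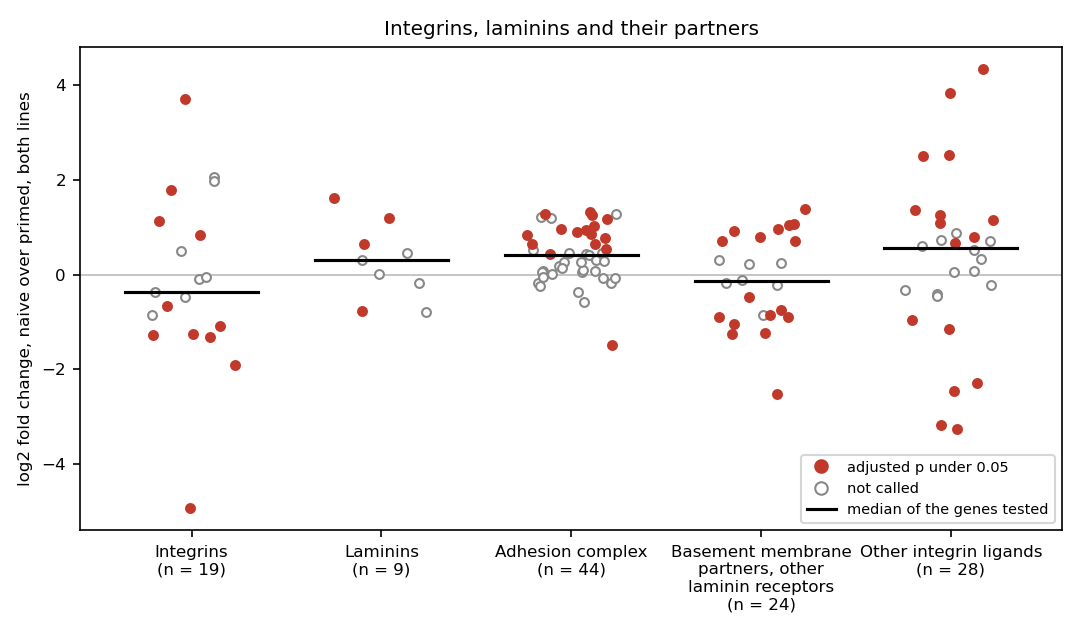
Log2 fold change, naive over primed over both lines, of each gene tested among the integrins (n = 19), the laminins (n = 9), the adhesion complex (n = 44), the basement membrane partners (n = 24) and the other integrin ligands (n = 28). Filled points passed the test and the line is the median, which was 0.42 for the adhesion complex and -0.37 for the integrins.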

How the data were processed

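Raw read counts were deposited by the authors as 1 table with a column per library. Per the labels' protocols, libraries were stranded and made from total RNA, with 30 M or more paired reads of 75 bases, while polyA RNA is the molecule that the labels give. Tools in the submitters' processing notes are STAR 2.4.0a, featureCounts 1.4.5-p1, FastQC and DESeq2, with GRCh37.p5 and hg19 as builds. Neither the annotation nor the strand setting is given in the sources used here, so reads of overlapping genes on opposite strands cannot be told apart.

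Counts were tested with edgeR 4.0.16 (R 4.3.3) by the quasi-likelihood F-test, with TMM factors (0.964 to 1.029) and filterByExpr (minimum count 10, minimum total 15). The comparison over both lines used the 6 libraries and a term for the line (3 residual degrees of freedom). For the others each group had its own mean (2 residual degrees of freedom). P-values were two-sided and adjusted by Benjamini-Hochberg over 19434 genes. The SE was the log2 fold change divided by the square root of F. Duplicates differed beyond counting noise (chi-square per gene 9.22 in naive RH6 and 5.76 in naive RH5) and were kept apart. On simulated data for the state comparison (18710 genes), 91.2% of genes changed by 1 on the log2 scale and 100% of those changed by 2 were recovered. For the line difference (18681 genes) 40% and 85.3% were. In the real data, the spread beyond counting noise (biological coefficient of variation) was 0.189 in the fit over both lines. The simulated spread was smaller than that, and changes were placed only in genes above a floor on counts. No line effect was simulated for the state comparison, so its recovery may be too favourable. Recovery in the real libraries was not tested.

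Named with values were genes called over both lines, genes whose line difference was called at a size of at least 1, and ITGA6, ITGB1, ITGAV, ITGB5, ITGA5, LAMA5, LAMB1, LAMB2 and LAMC1. Of each list up to 3 genes per direction were named. ITGB1P1, MFGE8, FN1, COL4A1 and TLN1 were named after their values were seen. A single gene is counted in the totals and not reported here. The genes, lists and tests were chosen with earlier results of these data known. Alternatives were DESeq2 1.42.0, limma-voom (limma 3.58.1), RLE and upper-quartile factors, no filter, no line term, summed naive libraries and leaving out each library.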

Additional observations from a re-analysis of the deposited data

Results flagged for a closer look

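The effect of the state differed between RH6 and RH5 for 6 genes given here, by edgeR's test of the difference itself with Benjamini-Hochberg adjustment. The RH6 effect minus the RH5 effect on the log2 scale was 1.46 for ITGA3, 1.04 for ITGAV, 0.91 for ITGB5 and 0.84 for LAMA1. It was -2.92 for ITGA8 and -3.75 for ITGB6. Groups of 2 and of 1 library were too small to look for libraries far from the others of their group.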

How the results depend on the processing

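The count of 15 genes called over both lines was 12 to 19 under the other tools, factors, filter and model and 12 to 18 with each library left out, where a fit without a primed library gives the effect in the other line alone. With a line's naive libraries summed it was 7, all of them among the 15, from fewer libraries, with 1127 of 20405 genes called in all. For naive RH6 against naive RH5 the count of 12 became 6 with DESeq2, which called 2856 of all 19434 genes against 4952, and the cause was not tested. The count was 16 to 20 within RH6 (main 18), 16 to 19 within RH5 (main 17) and 5 to 9 for the line difference (main 7), with no alternative past 1.5 times.

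Same-numbered naive libraries shared only a number, and their deviations correlated at 0.140 over 19434 genes. With a replicate block on the 4 naive libraries, 17 genes differed between the naive lines, against 12 without the block, while the count over all 18220 genes tested went from 4987 to 7405.

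ITGB6, at -0.06 over both lines, changed sign with limma-voom (0.39), without the line term (0.15), with summed naive libraries (0.032) and without single libraries (-1.75 to 1.98). It was not called over both lines, and the cause was not tested. ITGA3 and ITGA8 were called over both lines by DESeq2, and ITGA3, ITGA8, ITGAV and ITGB3 with no filter on low counts. DESeq2 gave no adjusted p for the line difference of ITGB6. A single primed library per line limits every statement on primed cells.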

Other observations

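Some ligands and linkers of the receptors above were looked at after their values were seen. FN1, the fibronectin bound by α5β1 and α4β1, had 1433 and 1201 CPM in naive RH6 against 240.2 in primed RH6, and 669.4 and 655.2 in naive RH5 against 784.6 in primed RH5. Its log2 fold change over both lines was 0.89 ± 0.57 and was not called by edgeR (SE, adjusted p = 0.30). It rose by 2.45 ± 0.15 in RH6 (adjusted p = 1.18e-06) and had -0.24 ± 0.13 in RH5 (adjusted p = 0.17), and the difference between the lines was 2.70 ± 0.19 (adjusted p = 2.25e-05). MFGE8, an RGD protein bound by αvβ5 and αvβ3, fell by 2.29 ± 0.09 on the log2 scale (adjusted p = 5.14e-05), from 166.5 and 116.9 CPM in primed RH6 and RH5 to 23.8 to 34.0 CPM in naive libraries, while ITGB5 rose. COL4A1, the main collagen chain of basement membranes, had 311.9 and 306.1 CPM in naive RH6 and 156.0 and 160.7 in naive RH5, against 111.6 and 118.6 in primed libraries (log2 fold change 0.91 ± 0.23, adjusted p = 0.027). TLN1, talin, which binds β subunit tails, rose by 0.84 ± 0.10 (adjusted p = 0.0019), from 152.7 and 163.7 CPM in primed to 269.7 to 300.5 CPM in naive libraries.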
